A study of Mus musculus with 8 samples.

Results

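Collagens and laminins are the chains from which muscle cells and their neighbours build extracellular matrix. The genes were taken by symbol: every gene whose symbol is Col followed by a digit, or Lama, Lamb or Lamc followed by a digit, among the genes that the arrays name with a single symbol. This gave 52 genes of 18193, of which 42 encode collagen chains and 10 laminin chains. Each gene was read from the probe set with the brightest mean over the 4 arrays of its type, on array type A where the gene was present there (46 genes) and otherwise on type B (6 genes).

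The material was total RNA from mouse skeletal muscle myotubes, the multinucleated cells that form when muscle precursors fuse, called primary in the title of the series. The 8 samples are 4 RNAs, every one read on an array of type A and an array of type B. The labels describe 1 RNA as wildtype and 1 as truncated Egr-3, both with a growth treatment. Egr3 is a zinc-finger transcription factor needed for muscle spindles to form, and the series asks which genes it regulates in myotubes. The labels do not say whether wildtype means the protein or the cells, how truncated Egr3 came to be in the culture, or the age, strain or number of animals. RNA275 carries only an acclimatization treatment in its label and RNA276 carries no condition, so neither belongs to a group, and their values are given as values of single RNAs. Since no label has a second RNA, the differences below have no replicate check and carry no p-value.

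Collagen chains wind into triple helices. Fibrillar collagens, above all types I, III and V, assemble into the cross-banded fibrils of connective tissue, and fibril-associated collagens such as types XII, XIV and XVI sit on their surface. Basement membranes, the thin sheets that wrap each muscle fibre, are built from a laminin network, in which an alpha, a beta and a gamma chain join into a cross-shaped trimer, and from a network of type IV collagen, with the beaded filaments of type VI collagen linking the sheet to the matrix around it.

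The regulator under study binds a GC-rich DNA element, so the promoters of the member genes were searched for its letters first. RefSeq promoter windows on the GRCm38.p6 assembly, 300 bases from 250 before to 50 after a start site, were given for 38 of the 52 genes. The EGR element was searched as GCGNGGGCG on both strands. It was found in 4 of the 38 genes (10.5%), against 6.27% of 27025 genes with such a window. Both type IV chains Col4a1 and Col4a2 held it, as did the laminin beta chain gene Lamb1 and the network collagen gene Col8a1. None of the 8 fibrillar genes with a window held it, and 3 of the 10 basement membrane genes did. The sites are shown because they are the only places in the members' windows where the letters of the element occur, with the element in capitals and 8 bases on either side, on the strand of the gene named.
Col4a2, chr8:11312800-11312824, plus strand: tcggcagtGCGCGGGCGgcgtctcc
Lamb1, chr12:31265211-31265235, plus strand: gccccctcCGCCCCCGCtctccatg
Col8a1, chr16:57754786-57754810, minus strand: ccgcccgcCGCCCCCGCtcaatccc

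The Col4a1 and Col4a2 match is a single site. These neighbouring genes are transcribed away from each other, Col4a2 from position 11312805 on the plus strand and Col4a1 from position 11312826 on the minus strand of chromosome 8, so their transcripts share 22 bases at their starts and the windows share 78 bases. Read along Col4a1, the site is ggagacgcCGCCCGCGCactgccga, with the element on the other strand. The element begins 4 bases into the Col4a2 transcript, while in Lamb1 and Col8a1 it lies at positions -74 and -65 from the start and on the strand opposite the gene. A match of letters is a description and not a measured binding site. The GC box GGGCGG, the letters read by Sp1, was in the windows of 24 of the 38 genes (63.2%), against 38.2% of all genes. CCAAT was in 14 (36.8%, against 41.1%) and TATAAA in 5 (13.2%, against 15.7%), all on either strand. The GC box and the EGR element are both GC-rich. At each site shown, read on the strand of the element, its end and the next base spell GGGCGG, so both overlap there.

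The values are array signals on a linear scale, which the authors deposited with a common trimmed mean on all 8 arrays, and the signal of a probe set is compared only with the same probe set in another RNA. Signals under the floor of an array type (67.6 for A, 112.6 for B) were set to the floor before log2 was taken, so a difference from an RNA at the floor is a lower bound. By the probe set used for each gene, 36 of the 52 were above the floor in at least 1 of the 4 RNAs and are called measured. The probe sets used for the 16 others, below the floor in every RNA, were those of the type IV chains Col4a3, Col4a4 and Col4a6, the laminin chains Lama1, Lama3, Lamb3 and Lamc3, the fibrillar chain Col24a1, and Col9a2, Col9a3, Col10a1, Col13a1, Col17a1, Col20a1, Col22a1 and Col6a5. Col22a1 alone among these had another probe set above its floor, on type B, which read 179 in RNA276, 126 in RNA275, 128 in wildtype and 172 in truncated Egr3. The laminin chains that were measured, Lama2, Lama4, Lama5, Lamb1, Lamb2 and Lamc1, are those known from muscle and vessel basement membranes. All 8 myotube markers (Acta1, Ckm, Myh3, Myog, Tnnt3, Tnnc1, Des and Actn2) were measured in every RNA with spans of at most 0.63 in log2 over the 4 RNAs.

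Only technical error could be measured here. In 100 probe sets that types A and B share, the SD of a single log2 difference was between 0.150 and 0.204 over the 6 pairs of RNAs, and 0.179 for wildtype minus truncated Egr3. The SD leaves out the mean shift between the types, which is given below. Those probe sets are bright, with a median signal at the 86.3 percentile of type A. Among the members, 23 further measured probe sets of 19 genes differed from the chosen ones by an SD of 0.356 in that log2 difference, and 17 of the 23 had the same sign. Differences below these sizes are given as values only.

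Between wildtype and truncated Egr3, Col12a1, Col15a1, Col16a1 and Col18a1 had the higher signal in truncated Egr3, each by at least 1.5-fold. The fibrillar chains Col1a1, Col1a2 and Col3a1 were at most 1.26-fold apart by the probe sets used, although a second Col3a1 probe set was 1.48-fold higher in truncated Egr3. None of the 35 members measured in these RNAs was at least 2-fold higher in wildtype, against 1.13% of 10307 measured genes, and 1 (Col15a1) was at least 2-fold lower, against 0.534%. At 1.5-fold, 1 member (Col2a1) was higher, against 4.59% of genes, and 4 (Col12a1, Col15a1, Col16a1 and Col18a1) were lower, against 4.7%. The median log2 difference, wildtype minus truncated Egr3, was -0.10 over the 35 members and -0.001 over all measured genes, with 14 members above 0 and 21 below.

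**Figure D1:**
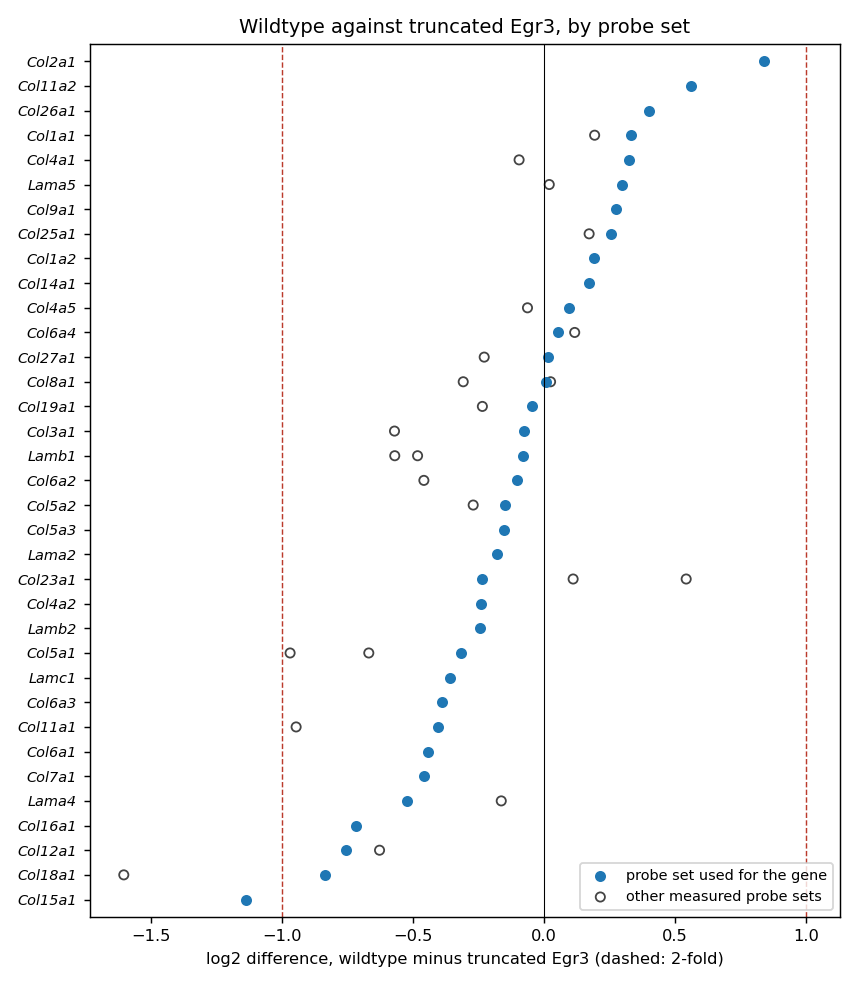
Log2 difference of signal, wildtype minus truncated Egr3, for the 35 measured genes (x axis; genes on the y axis in order of the difference). Filled circles are the probe set used for the gene, open circles its other measured probe sets, and dashed lines mark 2-fold. Col15a1 at -1.14 is the only filled circle past 2-fold; an open circle of Col18a1 lies at -1.60. The differences of Col2a1 and Col11a2 are lower bounds.

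Type I collagen is the main fibril-forming collagen of connective tissue. Its gene Col1a1 read 4199 in RNA276, 3336 in RNA275, 4295 in wildtype and 3417 in truncated Egr3 by the probe set used. The span was 1.29-fold, with wildtype and RNA276 together at the top. A second, dimmer Col1a1 probe set read 574, 339, 617 and 540 in that order, a span of 1.82-fold with RNA275 lowest. Col1a2, the partner chain, read 149, 105, 155 and 136 in the same order, so RNA275 was again lowest and wildtype highest. Col3a1, the homotrimer that co-assembles with type I, read 3789 in RNA276, 3170 in RNA275, 3356 in wildtype and 3536 in truncated Egr3. That span, 1.20-fold, was the smallest of the fibrillar chains, and by the probe sets used Col3a1 was the single member with its highest signal in RNA276, against 32.4% of 11154 genes measured in at least 1 of the 4 RNAs. Its other probe set had another order, at 844, 645, 758 and 1126 with truncated Egr3 highest, and gave a log2 difference of -0.57 for wildtype minus truncated Egr3 where the chosen one gave -0.08.

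The chains of type V collagen, which starts fibrils and limits their diameter, followed another order. Col5a1 read 963 in RNA276, 855 in RNA275, 1642 in wildtype and 2044 in truncated Egr3, so that both labelled RNAs lay clear above RNA275 and RNA276 with a span of 2.39-fold. Between the labelled RNAs, wildtype minus truncated Egr3, the log2 difference was -0.32 by the chosen probe set and larger, at -0.67 and -0.97, by 2 others. Col5a2 (1684 in RNA276, 1232 in RNA275, 1779 in wildtype and 1974 in truncated Egr3) and Col5a3 (592, 520, 870 and 967 in that order) had the same order of RNAs with spans of 1.60-fold and 1.86-fold. By a second Col5a2 probe set, at 221, 296, 321 and 388, both labelled RNAs were again the higher.

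Col11a1, a chain of the minor fibrillar collagen that can replace type V chains, read 188 in RNA276, 195 in RNA275, 203 in wildtype and 269 in truncated Egr3. Truncated Egr3 stood above the other 3 RNAs, and a second probe set gave a log2 difference of -0.95 between wildtype and truncated Egr3. Col27a1, a fibrillar collagen of developing cartilage, read 781, 880, 630 and 623 on type B in the order RNA276, RNA275, wildtype, truncated Egr3. It was thus 1 of 2 members, with Col8a2, for which both labelled RNAs were below RNA275 and RNA276, against 20.2% of genes. Its other probe set did not keep that order, at 280, 527, 485 and 568.

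Col2a1 and Col11a2, chains of cartilage fibrils, differed from the other measured fibrillar chains in their pattern over the 4 RNAs. Col2a1 read 26.7 in RNA276, 255 in RNA275, 121 in wildtype and 31.9 in truncated Egr3, which is at least 3.78-fold from RNA275 to the RNAs at the floor and at least 1.79-fold from wildtype to truncated Egr3. Col11a2 read 25.2, 133, 99.7 and 24.3 in that order, at least 1.48-fold from wildtype to truncated Egr3. For both genes RNA275 and wildtype were above the floor and RNA276 and truncated Egr3 below it. The pattern was not particular to cartilage chains. Among the partner genes, Mmp9 (50.6, 108, 78.7 and 60.3) and Itga1 were also above the floor in RNA275 and wildtype only. Col26a1 and Itga3 likewise had RNA275 highest and wildtype next. Of 10 other cartilage genes, a list chosen after these values were seen, 2 were measured: Sox9, the master regulator of cartilage, read 65.4, 68.1, 88.9 and 91.6, and Comp, a cartilage matrix protein, read 27.6, 125, 59.7 and 19.5. Comp was above the floor in RNA275 alone.

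Type IV collagen forms the covalently linked sheet of every basement membrane. Col4a1 read 1196 in RNA276, 1168 in RNA275, 1493 in wildtype and 1192 in truncated Egr3, so wildtype alone stood apart, 1.25-fold above truncated Egr3. Col4a2, transcribed from the shared promoter, read 586, 530, 665 and 787 in that order, with truncated Egr3 highest. The log2 differences between wildtype and truncated Egr3, 0.33 and -0.24, had opposite signs, but a second Col4a1 probe set gave -0.10 (744, 654, 884 and 944), an order of RNAs like that of Col4a2. Col4a5, a chain of a second type IV network, read 59.6 in RNA276, which is below the floor. It read 94.2 in RNA275, 110 in wildtype and 103 in truncated Egr3. A second Col4a5 probe set was above the floor in every RNA, at 84.0, 79.8, 94.7 and 98.9, a span of 1.24-fold.

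Among the laminins, Lama4 and Lama2 spanned over 2-fold. Lama4, a chain of vessel and developing muscle basement membranes, read 138 in RNA276, 111 in RNA275, 238 in wildtype and 342 in truncated Egr3, a span of 3.08-fold. A second Lama4 probe set read 66.6, 52.1, 119 and 134, again with both labelled RNAs above RNA275 and RNA276. Lama2, the alpha chain of the muscle fibre laminin whose loss causes congenital muscular dystrophy, read 81.0, 102, 175 and 197 in the same order, a span of 2.44-fold. The labelled RNAs differed little for Lama2, at -0.18 in log2, whereas for Lama4 they differed by -0.52.

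Lama5, a widely used alpha chain, read 116 in RNA276, 150 in RNA275, 209 in wildtype and 170 in truncated Egr3. Lamb1, a beta chain gene whose promoter window holds the EGR letters shown above, read 257, 237, 333 and 353 in that order. Lamb2, the beta chain concentrated at the neuromuscular junction, read 68.5, 61.6, 74.8 and 88.5, close to the floor throughout. Lamc1, the gamma chain shared by most laminins, read 277, 239, 260 and 333, with wildtype below RNA276. Lamb1 had a log2 difference of -0.08 between wildtype and truncated Egr3 by its chosen probe set, and of -0.48 and -0.57 by 2 dimmer ones, the first of which spanned at least 2.38-fold over the 4 RNAs. Col8a1, the remaining gene with the EGR letters, read 372, 345, 495 and 492 on type A and 971, 1524, 2049 and 2014 on type B, and wildtype and truncated Egr3 were level by both. A dim second probe set on type A was above the floor only in truncated Egr3, at 53.2, 55.5, 49.3 and 83.6. By the probe sets used, the 4 genes with the letters had log2 differences of 0.33, -0.24, -0.08 and 0.01, none at 1.5-fold.

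**Figure D2:**
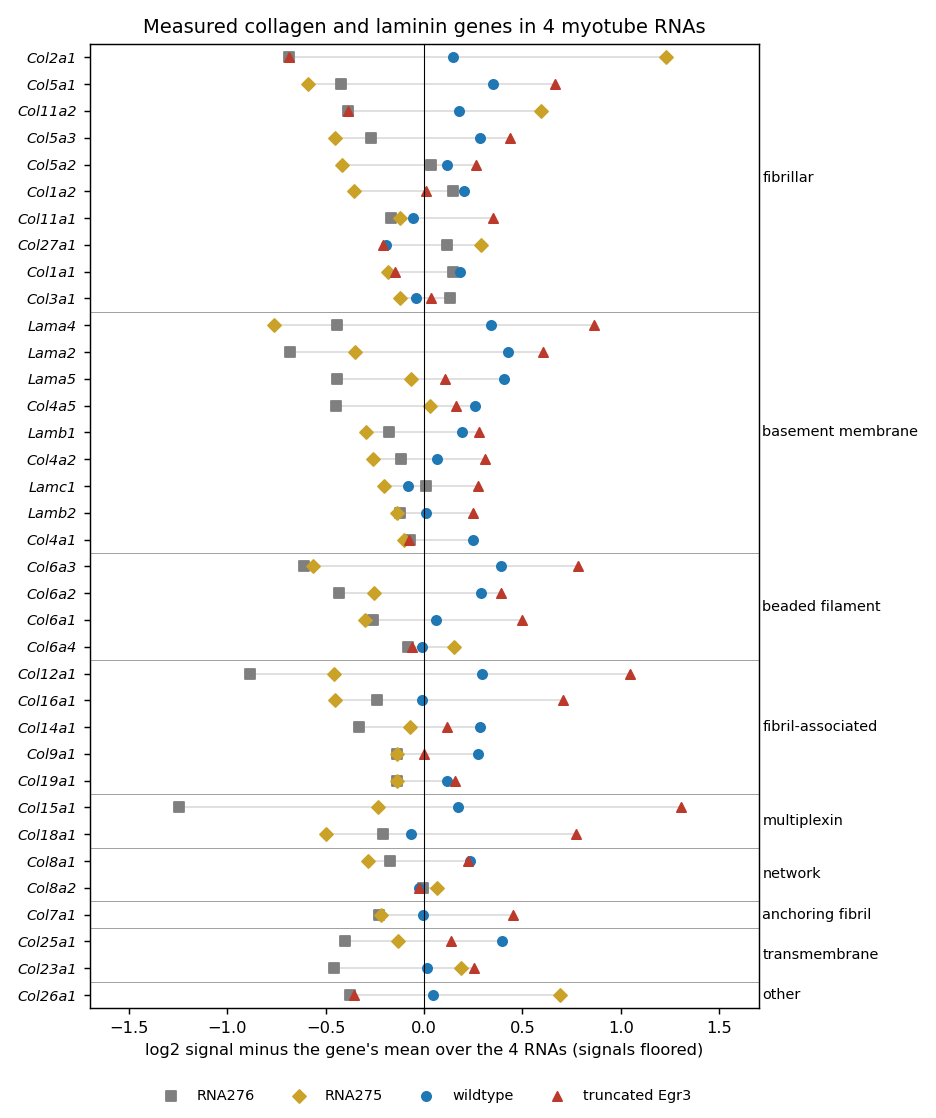
Log2 signal in each RNA minus the mean over the 4 RNAs (x axis, floored signals) for the 36 measured genes (y axis), grouped by class and ordered by span within a class. Squares are RNA276, diamonds RNA275, circles wildtype and triangles truncated Egr3. Triangles lie at the right end for 20 genes; Col2a1, Col11a2, Col26a1, Col27a1, Col6a4 and Col8a2 have the RNA275 diamond there.

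Type VI collagen, whose loss causes Ullrich and Bethlem muscular dystrophies, also read higher in both labelled RNAs for 3 of its 4 measured chains. Col6a3 read 670 in RNA276, 692 in RNA275, 1344 in wildtype and 1759 in truncated Egr3, a span of 2.63-fold. Col6a1 read 1161, 1128, 1446 and 1964 in that order, and Col6a2, its neighbour in the genome, read 1123, 1270, 1851 and 1986. In all 3 chains of the trimer both labelled RNAs were above RNA275 and RNA276 and truncated Egr3 was highest. By the probe sets used, truncated Egr3 exceeded wildtype by 0.44 in log2 for Col6a1, 0.39 for Col6a3 and 0.10 for Col6a2. A second Col6a2 probe set read 961, 1022, 1046 and 1438, with wildtype close to RNA275. It gave a log2 difference of -0.46 for wildtype minus truncated Egr3. Col6a4 on type B stayed near the floor, between 97.0 and 132.

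The 5 fibril-associated collagens measured by the probe set used had both labelled RNAs above RNA275 and RNA276; Col22a1, by the type B probe set given above, did not, with RNA276 highest. Col12a1, which is made by muscle and tendon and links fibrils to their surroundings, read 87.2 in RNA276, 117 in RNA275, 198 in wildtype and 333 in truncated Egr3, a span of 3.82-fold. Its only measured type B probe set gave the same order at 504, 660, 1040 and 1606, so the measured probe sets of both types put the 4 RNAs in 1 order. Its other type B probe sets were below the floor in every RNA. Between wildtype and truncated Egr3 the log2 difference was -0.75 on type A and -0.63 on type B. Col16a1 read 144, 124, 168 and 276.4, with truncated Egr3 well above the other 3 RNAs. Col14a1, Col9a1 and Col19a1 were near the floor on type A, at no more than 104, and Col19a1 read 212, 241, 284 and 334 by a type B probe set.

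The multiplexins, types XV and XVIII, carry glycosaminoglycan chains, sit on the outer face of basement membranes and release endostatin fragments. Col15a1, needed for the stability of muscle fibres and capillaries, read 42.5 in RNA276, below the floor, 136 in RNA275, 180 in wildtype and 396 in truncated Egr3. The difference between the labelled RNAs was 2.20-fold, the only one past 2-fold among the probe sets used, and rests on a single probe set. With quantile, equal-median and loess scaling it was -1.15, -1.20 and -1.12 in log2. The other settings could not move it, because the gene has no other probe set and both signals were above every floor used. The span over the 4 RNAs was at least 5.86-fold. Col18a1 read 429, 351, 473 and 845, which is 1.79-fold higher in truncated Egr3 than in wildtype, and a second probe set read 337, 277, 217 and 660, a log2 difference of -1.60. For both genes truncated Egr3 was above the 3 other RNAs by every measured probe set.

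The remaining measured collagens belong to small classes. Col25a1, a membrane collagen of muscle that motor axons need to enter it, read 62.3, 81.5, 117 and 98.2 on type A and 474, 392, 1162 and 1031 on type B in the order RNA276, RNA275, wildtype, truncated Egr3. The labelled RNAs were above RNA275 and RNA276 on both types. Col23a1, also a membrane collagen, had log2 differences between wildtype and truncated Egr3 of -0.24, 0.11 and 0.54 by its 3 probe sets, which do not share a sign. Col7a1, the anchoring fibril collagen, read 72.1, 72.4, 84.1 and 116, and Col26a1 read 62.2, 142, 90.6 and 68.6 with RNA275 highest. Col8a2, a network collagen, was above its floor only in RNA276 (114) and RNA275 (120).

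**Figure D3:**
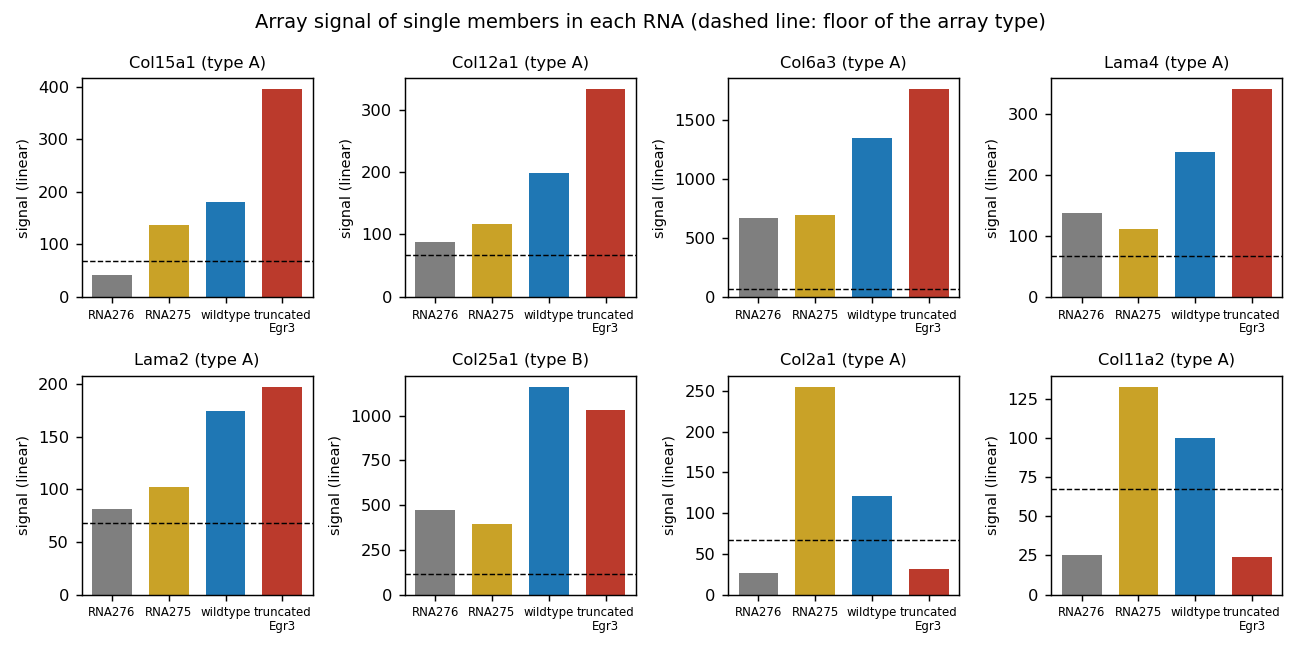
Linear array signal (y axis, from 0) in each of the 4 RNAs (x axis) for 8 members with large spans, 1 bar per array and no error bars because there is 1 array per RNA and type. The dashed line is the floor of the array type. Col15a1, Col12a1, Col6a3, Lama4 and Lama2 are highest in truncated Egr3, Col25a1 is highest in wildtype, and Col2a1 and Col11a2 are above the floor only in RNA275 and wildtype.

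Over the 4 RNAs, 10 of the 36 measured members (27.8%) spanned at least 2-fold, against 14.8% of measured genes: Col2a1, Col5a1, Lama2, Lama4, Col6a3, Col12a1, Col16a1, Col15a1, Col18a1 and Col26a1. The median span was 0.70 in log2 for members and 0.54 for all genes. Wildtype and truncated Egr3 were both above RNA275 and RNA276 for 24 of the 36 members (66.7%), against 19.4% of genes. These were 7 of 9 basement membrane chains, 4 of 10 fibrillar chains (those of type V and Col11a1), 3 of 4 beaded filament chains, all 5 fibril-associated and both multiplexin genes, Col8a1, Col7a1 and Col25a1. Truncated Egr3 gave the highest signal for 20 of 36 (55.6%), against 24% of genes, and RNA276 for 1, against 32.4% of genes. This order was noticed in the data and then counted. No minimum gap was asked. Col11a1 is thus counted with wildtype at 203 and RNA275 at 195, and Col5a2 with wildtype at 1779 and RNA276 at 1684.

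The array types do not read these RNAs alike. For the 100 shared probe sets, the log2 difference of RNA276 minus wildtype read on type A, less its value on type B, averaged -0.267, and that of RNA275 minus wildtype -0.217. With truncated Egr3 in place of wildtype the averages were -0.128 and -0.078. For wildtype minus truncated Egr3 the average was 0.139, larger in size than the median difference of -0.10 over the members. Most members were read on type A, so the order was counted within each type. On type A, 31 of 47 measured member probe sets (66%) had both labelled RNAs above RNA275 and RNA276, against 23.8% of all measured probe sets there. On type B the count was 6 of 13 (46.2%), against 17.5%. With the arrays set to equal medians, 19 members had the order, against 12.0% of genes. Of 16 other probe sets of the 24 genes, 10 had the same order. Those without it belonged to Col11a1, Col18a1, Lama5, Lamb1 and Col8a1. Chains of 1 trimer and neighbouring genes are not independent counts.

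Fibrillar and basement membrane chains were set side by side in each RNA as the median, over the measured genes of a class, of the log2 signal minus the gene's mean over the 4 RNAs. The 10 fibrillar chains had medians of -0.07 in RNA276, -0.15 in RNA275, 0.16 in wildtype and 0.02 in truncated Egr3. The 9 basement membrane chains had medians of -0.18, -0.20, 0.25 and 0.28 in that order. The fibrillar median minus the basement membrane median was thus 0.11 in RNA276, 0.05 in RNA275, -0.09 in wildtype and -0.25 in truncated Egr3. The value in truncated Egr3 became 0.03 without probe sets whose names carry a suffix letter, such as _a_at, _s_at or _x_at. That setting left Col1a2 and Col2a1 out of the fibrillar class and read Col3a1 and Lamb1 by another probe set. The value in RNA276 became -0.16 with the median over a gene's probe sets. No error of these class medians could be measured. The classes overlapped in every RNA.

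Between wildtype and truncated Egr3 the median log2 difference was -0.03 for the fibrillar class, from -0.41 (Col11a1) to at least 0.84 (Col2a1), and -0.18 for the basement membrane class, from -0.52 (Lama4) to 0.33 (Col4a1). The difference of the medians was 0.15, and it was -0.13 with the type IV chains alone as the basement membrane class and -0.04 without a floor. The beaded filament median was -0.25, the fibril-associated -0.05 and the multiplexin -0.99.

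**Figure D4:**
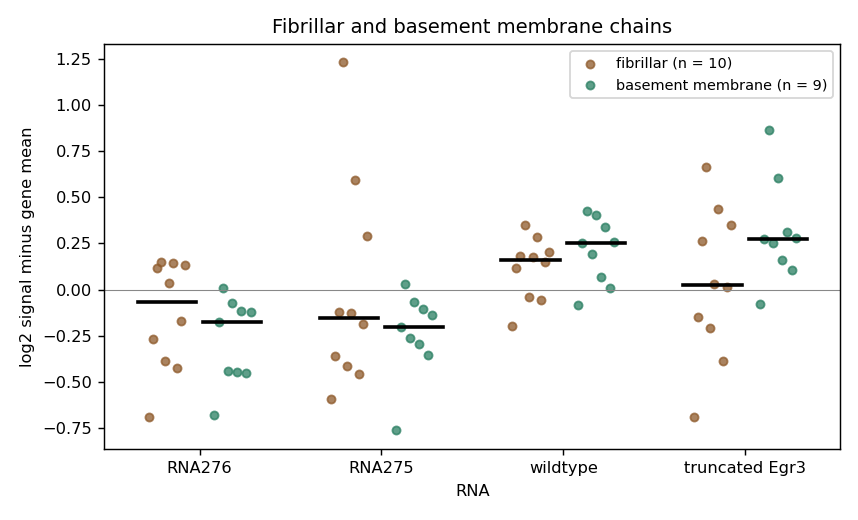
Log2 signal minus the gene's mean over the 4 RNAs (y axis) in each RNA (x axis). Each point is a gene, brown for the 10 fibrillar and green for the 9 basement membrane chains, and the bars are class medians. The medians lie below 0 in RNA276 and RNA275 for both classes, and the basement membrane bar is the higher in wildtype (0.25) and truncated Egr3 (0.28).

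Genes of collagen synthesis and folding, not all of them enzymes, were described in the same way. Of 17 measured genes of a list of 19, none was 2-fold apart between wildtype and truncated Egr3, 4 were at least 1.5-fold lower in wildtype (P4ha1, Plod1, Plod2 and Tmem38b; 4.7% of all genes were) and 1 higher (P4ha3; 4.59% of all genes were), with a median of -0.23. Plod2, the lysyl hydroxylase that directs collagen cross-links, read 475 in RNA276, 239 in RNA275, 553 in wildtype and 1048 in truncated Egr3. P4ha2, a catalytic subunit of the prolyl hydroxylase that stabilises the triple helix, read 446, 406, 873 and 1232 in that order, and Plod1, another lysyl hydroxylase, read 248, 258, 432 and 708. In all 3, truncated Egr3 was highest and wildtype next, and 8 of the 17 (47.1%, against 19.4% of all genes) had both labelled RNAs above RNA275 and RNA276.

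Genes that cut and cross-link collagen outside the cell were measured for 6 of 13 listed, with none at 2-fold between the labelled RNAs and a median of -0.02. Bmp1, which removes the carboxyl propeptide of fibrillar collagens, read 71.1 in RNA276, 157 in RNA275, 217 in wildtype and 296 in truncated Egr3, and Lox, the cross-linking lysyl oxidase, read 1340, 1382, 2385 and 2300. Loxl3, another lysyl oxidase, read 318, 142, 207 and 152, with RNA276 above the rest. Of the 6 measured genes, only Bmp1 and Lox had both labelled RNAs above RNA275 and RNA276, an order found for 19.4% of all genes.

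Basement membrane partners did not share a direction. Hspg2, which encodes the heparan sulphate proteoglycan perlecan, read 756 in RNA276, 485 in RNA275, 392 in wildtype and 827 in truncated Egr3, so it was 2-fold lower in wildtype (-1.07 in log2), the single such gene of 5 measured. Agrn, the proteoglycan that clusters acetylcholine receptors, read 137, 201, 187 and 94.7, the opposite way and just under 2-fold (0.98). Pxdn, the peroxidase that cross-links type IV collagen, read 2026, 2285, 2533 and 3513 on type B, with truncated Egr3 highest. None of 10 measured collagen and laminin receptor genes was 2-fold apart between wildtype and truncated Egr3. Ddr1, a collagen-binding receptor kinase, read 303, 620, 159 and 145 and Itga3, a laminin-binding integrin chain, 63.2, 193, 114 and 82.8, both with RNA275 highest. Itga6, also a laminin-binding chain, read 367, 511, 425 and 221 with truncated Egr3 lowest (0.95 between wildtype and truncated Egr3). Of the 10, 3 (Ddr2, Itga7 and Itga10) had both labelled RNAs above RNA275 and RNA276, or 30%, against 19.4% of measured genes.

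Of 6 measured proteases and inhibitors, Timp1, an inhibitor of matrix metalloproteinases, was at least 2-fold higher in wildtype, at 1544 in RNA276, 2159 in RNA275, 2196 in wildtype and 787 in truncated Egr3. Mmp14, which cuts fibrillar collagen at the cell surface, went the other way with 667, 447, 418 and 814, a log2 difference of -0.96. Timp2, which Mmp14 uses to activate a further protease, read 2428, 1322, 1297 and 1413, with RNA276 apart from the others.

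Muscle cultures can hold other matrix-making cells, and in a bulk RNA fewer cells of a type and less RNA per cell cannot be told apart. Of 8 fibroblast markers, 3 were measured and 5 (Pdgfra, Lum, Dpt, Thy1 and Tcf21) were below the floor in all 4 RNAs. Dcn read 202 in RNA276, 257 in RNA275, 157 in wildtype and 317 in truncated Egr3, Fap 63.0, 116, 153 and 266, and Gsn 593, 370, 386 and 712. The summed signal of the 8 was 980, 921, 833 and 1433 in that order, highest in truncated Egr3 and lowest in wildtype, which is the direction of Col15a1, Col12a1, Col16a1 and Col18a1 between the labelled RNAs. The sum is set mostly by the brighter Gsn and Dcn, and the 3 measured markers did not share an order below truncated Egr3: wildtype was lowest for Dcn, between RNA275 and RNA276 for Gsn, and above both for Fap. Smooth muscle and pericyte markers, 4 of 7 measured, summed to 5152, 5073, 6073 and 4459, with wildtype highest and truncated Egr3 lowest. That sum is set mostly by the brighter Acta2 and Tagln. Cspg4 (85.1, 120, 181 and 132) and Pdgfrb (202, 347, 442 and 322) were lowest in RNA276. Myotube markers summed to 19654, 17475, 19413 and 16535. Endothelial, Schwann, macrophage and adipocyte lists had 1 measured marker each. The part of other cells in the collagen and laminin values was not tested.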

How the data were processed

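The deposited intensity values, 1 per probe set on a linear scale, were used as the authors gave them; their software and normalization method is not given in the sources used here. The means after trimming 2% from each end were 150.0 on all 8 arrays. Probe sets were named through the platform's annotation, and only those with 1 symbol were used (20380 on type A and 14661 on type B, of which 20351 and 14486 matched a RefSeq gene of GRCm38.p6 by gene number). Floors were the 50th percentile of the pooled wildtype and truncated-Egr3 arrays on type A and the 60th on type B. Members, classes, partner genes and markers were chosen with earlier results of these data known; the cartilage genes, the order of the 4 RNAs and the brightest probe set of either type were chosen after their values were seen. Every measured member could be named, with all 4 values for fibrillar and basement membrane chains and for others spanning 2-fold. Partners were named when 2-fold apart between wildtype and truncated Egr3 or among the 3 largest spans of their list. Partners counted at 1.5-fold or named for any other reason were named after their values were seen. Alternatives were quantile, equal-median and loess scaling (span 0.3), other floors, thresholds of 1.5-fold and 3-fold, other probe set rules and other class limits. The counting was tested on simulated data. Arrays of the 2 types are not replicates, and the number of arrays limits the precision. Python 3.11.15, numpy 2.4.6, pandas 2.3.3, statsmodels 0.14.6 and matplotlib 3.10.9 were used.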

Additional observations from a re-analysis of the deposited data

How the results depend on the processing

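Of 154 values under alternatives, 138 moved by less than 1.5 times for counts, 0.179 for log2 values or 5 percentage points for a share of genes; the log2 limit is taken from single genes and is no error of a class median. The number of members at least 2-fold higher in wildtype was 0, and it was 2 with the lower floor, 6 with no floor and 1 at a threshold of 1.5-fold. The number at least 2-fold lower was 1, and it was 2 with the median over probe sets, 4 at 1.5-fold and 0 at 3-fold. The number spanning 2-fold was 10, and it was 18 with no floor, 21 at 1.5-fold and 4 at 3-fold. The fibrillar minus basement membrane difference of medians, 0.148, was -0.041 with no floor and -0.125 with type IV chains alone; the basement membrane median, -0.178, was 0.057 and 0.095 under the same choices. In RNA276 the class difference of 0.110 was -0.156 with the median over probe sets. In truncated Egr3 the value of -0.253 was 0.031 without probe sets that carry a suffix letter. The cause was not tested for the class differences in RNA276 and truncated Egr3. With no floor, signals near background enter the differences. The members with both labelled RNAs above RNA275 and RNA276 numbered 18 to 28. No paired analysis was possible because each label has 1 RNA.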
